A study of Mus musculus with 7 samples.

Results

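Hepatokines are proteins that the liver releases into the blood, and 9 genes for them were followed here in the livers of fasted mice: Fgf21, Angptl4, Angptl6, Igfbp1, Igfbp2, Inhbe, Fst, Ahsg and Fetub. They were taken by gene name from the array annotation, where 10 of 55681 probes and 9 of 36492 gene names belong to them. Matching by name uses no measured value, but the 9 genes were chosen with earlier results of these data known. The WT group was 3 C57BL/6 mice and the SHIVA group 4 mice that carry a mutated Sox17 allele on the same background. By the labels all 7 mice were females 8 to 12 weeks old, fasted for 24 h, and each liver was measured on its own single-colour Agilent array. No fed mice are part of the comparison, so every value describes the fasted state. SHIVA mice descend from ENU (N-ethyl-N-nitrosourea) mutagenesis and are heterozygous for a methionine to arginine change in the DNA-binding HMG domain of the transcription factor Sox17. They come from a single mutant line kept by repeated backcrossing, and every cell of the animal carries the allele. Because the mutation is a base substitution, the Sox17 transcript level cannot check the genotype labels. Sox17 measured 3.41 to 4.52 in WT and 4.46 to 4.76 in SHIVA livers on the log2 scale (difference 0.69, SE 0.25, limma adjusted p = 0.279).

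The members act in several fasting circuits. FGF21 is induced by fasting through the nuclear receptor PPARα and acts on fat and brain through an FGF receptor joined to beta-Klotho. ANGPTL4 blocks lipoprotein lipase, which clears triglyceride from the blood, and ANGPTL6 is a related secreted protein. IGFBP1 and IGFBP2 bind insulin-like growth factors, and insulin represses Igfbp1 through FoxO factors. Inhbe encodes activin E, a ligand of the TGF-beta family, whereas follistatin, the product of Fst, binds activins and blocks them. Ahsg and Fetub encode fetuin-A and fetuin-B, abundant plasma proteins of the cystatin superfamily. Fetuin-A restrains mineral deposition and fetuin-B inhibits the protease ovastacin.

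The stretch of 250 bases before the start site is shown for Fgf21, Inhbe and Igfbp1, because Fgf21 and Inhbe had the lowest SHIVA levels relative to WT and Igfbp1 is the member with a known insulin response element. RefSeq promoters (GRCm38.p6) matched 7 of 9 members, with 9 start sites. Angptl4 and Fst had none in the table. The sequences are printed 5′ to 3′ on the strand of the gene, and capitals mark the motif matches.
Fgf21, chr7:45615491-45615740, minus strand: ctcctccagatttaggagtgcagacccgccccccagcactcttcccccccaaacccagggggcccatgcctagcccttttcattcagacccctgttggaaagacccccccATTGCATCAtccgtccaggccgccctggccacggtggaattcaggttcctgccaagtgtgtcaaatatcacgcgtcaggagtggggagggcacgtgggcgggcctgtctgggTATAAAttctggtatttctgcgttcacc
Inhbe, chr10:127351849-127352098, minus strand: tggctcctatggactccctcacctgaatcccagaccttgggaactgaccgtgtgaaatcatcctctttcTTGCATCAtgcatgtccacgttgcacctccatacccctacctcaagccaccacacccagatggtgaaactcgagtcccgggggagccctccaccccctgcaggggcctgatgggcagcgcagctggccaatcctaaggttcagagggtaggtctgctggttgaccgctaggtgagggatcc
Igfbp1, chr11:7197537-7197786, plus strand: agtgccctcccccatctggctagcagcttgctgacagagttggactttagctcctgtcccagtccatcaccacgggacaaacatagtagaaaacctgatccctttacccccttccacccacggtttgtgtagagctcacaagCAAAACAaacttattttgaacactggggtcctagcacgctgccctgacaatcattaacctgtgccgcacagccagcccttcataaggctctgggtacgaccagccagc
Positions are counted back from the start site, the base before it being -1. The capitals in Fgf21 are a TATA box (TATAAA) at -28 to -23 and, on the opposite strand, a C/EBP-ATF response element searched as TGATGNAAT at -140 to -132. Those letters occur on either strand in 12.4% and 0.816% of 32851 promoters. The Inhbe window held no match to any of the 7 motifs first searched. After the sequences had been read, the response element was also searched with its last letter free, as TGATGNAA, which overlaps the first form. This shorter form occurs in 3.45% of promoters, and it is the only reason that Inhbe carries capitals, at -181 to -174 on the opposite strand. Igfbp1 held the insulin response letters CAAAACA at -108 to -102, found in 5.56% of promoters. The remaining matches were in Fetub, with TATAAA at -31 to -26 of one start site and the FoxO letters GTAAACA, present in 3.17% of promoters, at -236 to -230 of another. The Sox letters AACAAT (9.42% of promoters), the consensus PPAR direct repeat, DR1 (0.338%), and the CRE letters TGACGTCA (1.55%) were in none of the members' windows. No match says only that these letters are absent from this window.

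The livers were checked first. All 8 hepatocyte markers were well above background on all 7 arrays, and of the adipose markers Plin1, Cfd, Retn and Lep were above it on none. The adipose marker Adipoq was above it in 1 SHIVA liver, and Cidec in 2 WT livers and 1 SHIVA liver. Cidec, the 1 adipose marker tested, was lower in SHIVA by 2.79 on the log2 scale (limma adjusted p = 0.277). Neutrophil markers were higher in SHIVA livers in 6 of 6 (median log2 difference 1.09, 0 called), with summed levels of 8.73 to 10.2 in WT and 8.43 to 11.1 in SHIVA. Of these, Ngp and Mpo were well above background in 0 WT and 3 SHIVA livers. They passed the filter through SHIVA only, so their direction follows largely from the filter. Kupffer cell markers were also higher in 6 of 6 (median 0.43, 0 called), with sums of 13.8 to 14.9 and 14.3 to 15.5. Of the bile duct markers 4 of 5 tested were lower (median -0.55, 0 called), and of the red cell markers 3 of 3 were higher (median 0.43, 0 called). The part of these cell types in the differences below was not tested. In whole liver, fewer cells of a type and less RNA per cell cannot be told apart. All arrays lay on 1 slide and shared 1 scan, with WT in row 1 and SHIVA in row 2, so place on the slide and genotype cannot be told apart. One liver, WT 3, stood apart from the other WT livers in Fgf21 and Angptl8, described below, and results that rest on it are given with and without it.

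All 9 hepatokine genes were well above background on all 7 arrays. None of them passed the threshold of limma, a linear model fitted on 20002 genes with Benjamini-Hochberg adjusted p under 0.05, against 75 genes or 0.375% of all genes tested. At an unadjusted p under 0.05 there were 4 of 9, namely Fgf21, Angptl4 and Inhbe, which measured lower in SHIVA, and Fst, which measured higher. Over all genes this share was 13.3%, made up of 6.09% lower and 7.24% higher. The genotypes were fully separated for 4 of 9 members, with Angptl4, Inhbe and Ahsg lower in SHIVA and Fst higher, compared with 12.2% of all genes (6.02% lower and 6.14% higher). With each array scaled to its 75th percentile, Inhbe and Fst stayed separated, while Angptl4 and Ahsg overlapped. The share of all genes is not given for that scaling. The median log2 difference of the members was 0.17 and that of all genes -0.01, while the median size of the difference was 0.34 and 0.19. Because the members were chosen with earlier results of these data known, these shares and medians describe them and do not test them as a group. The 7 mice allow 35 splits into groups of these sizes, and the smallest exact permutation p is 0.0286.

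**Figure D1:**
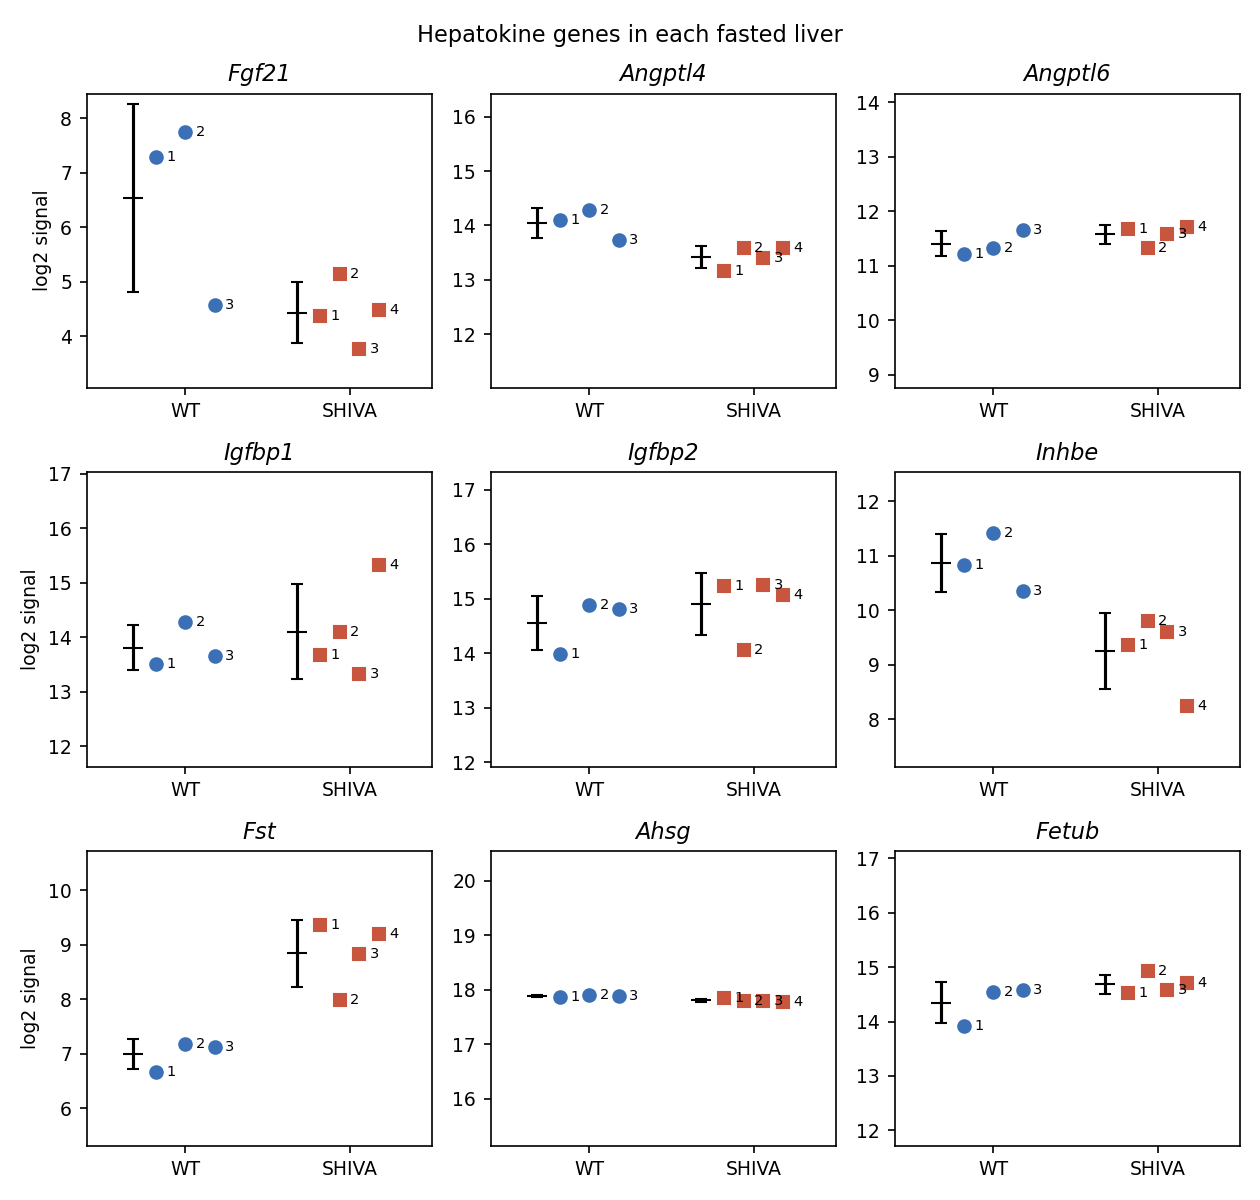
Log2 signal of each hepatokine gene in every fasted liver, on axes of equal span, with WT as circles, SHIVA as squares, the mouse number beside each point and the mean with its SD at the left (n = 3 and 4). Inhbe and Fst separate the genotypes, whereas the Fgf21 value of WT 3 (4.57) lies among the SHIVA livers (3.76 to 5.13).

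Among the ligands and secreted factors linked to PPARα, Fgf21 had the largest difference of the 9. The Fgf21 probe (mm9, chr7:52869305-52869364, minus strand) gave log2 signals of 7.30, 7.75 and 4.57 in WT 1, 2 and 3. The SHIVA livers measured 4.36, 5.13, 3.76 and 4.47. WT 1 and WT 2 were high, and WT 3 fell within the SHIVA range, so the groups overlap. On the deposited linear scale the same spots read 144, 195 and 23.1 in WT and 14.3 to 39.7 in SHIVA livers. Mean log2 levels were 6.54 ± 1.72 (SD, n = 3) and 4.43 ± 0.56 (SD, n = 4). The log2 difference was -2.11 (95% interval -3.69 to -0.52, SE 0.70), 4.31-fold lower in SHIVA with an interval of 1.44 to 12.9. Its limma adjusted p was 0.250 and its two-sided exact permutation p 0.0571. Only 0.280% of genes had a larger change, and only 0.385% had a larger spread within genotypes than the residual SD of 1.17. Without WT 3 the difference was -3.09 (limma adjusted p = 0.0149), and 397 genes passed in place of 75. Without WT 2 it was -1.50 (limma adjusted p = 0.588), and no other mouse left out gave an adjusted p below 0.301. With normexp background correction, which compresses low signals, it was -1.15 (limma adjusted p = 0.256).

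Angptl4 (mm9, chr17:33911880-33911939, minus strand) was bright on every array, with log2 signals of 14.11, 14.29 and 13.74 in WT. The SHIVA livers measured 13.16, 13.58, 13.40 and 13.59. Every WT value lay above every SHIVA value, although the gap between WT 3 and SHIVA 4 was narrow. With each array scaled to its 75th percentile they overlapped, at 13.65 in WT 3 and 13.68 in SHIVA 4. The difference was -0.61 (95% interval -1.04 to -0.19, SE 0.18, limma adjusted p = 0.228), or 1.53-fold lower in SHIVA, and the exact permutation p was 0.0286. Without WT 3 it was -0.77 (limma adjusted p = 0.0868). Angptl6 ranged from 11.22 to 11.66 in WT and from 11.33 to 11.70 in SHIVA livers. Its difference of 0.17 had an interval of -0.21 to 0.55 (limma adjusted p = 0.722), and the groups overlapped.

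The pattern of Fgf21 over the 7 livers was compared with every other gene tested, as the root mean square (RMS) difference of log2 values centred on their mean. The nearest genes were 2310001K24Rik (RMS 0.338), Acot5 (0.371) and Acot1 (0.392), against an SD of Fgf21 itself of 1.55. Of these, 2310001K24Rik was well above background in only 2 WT livers and 1 SHIVA liver, so its other values are dim. Acot1 and Acot5 encode acyl-CoA thioesterases. Acot1 measured 12.50, 13.08 and 9.65 in WT, and 8.48 to 9.71 in SHIVA livers. Acot5 measured 8.49 in WT 3 and 10.24 and 10.82 in the other WT livers, above the 7.34 to 7.97 of the SHIVA livers. These genes were picked for their likeness to Fgf21 over the same livers, so a low WT 3 value in them follows from the choice. Angptl8, a relative of Angptl4 that is raised by feeding, was singled out after its values were seen. It measured 10.83 and 10.67 in WT 1 and WT 2 and 13.24 in WT 3, the highest of all 7 livers. The SHIVA livers measured 11.69 to 12.87, and the difference was 0.51 (SE 0.60, limma adjusted p = 0.765). Without WT 3 it was 1.34 (SE 0.33, limma adjusted p = 0.0920). WT 3 therefore was the lowest WT liver for Fgf21 and the highest for Angptl8.

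**Figure D2:**
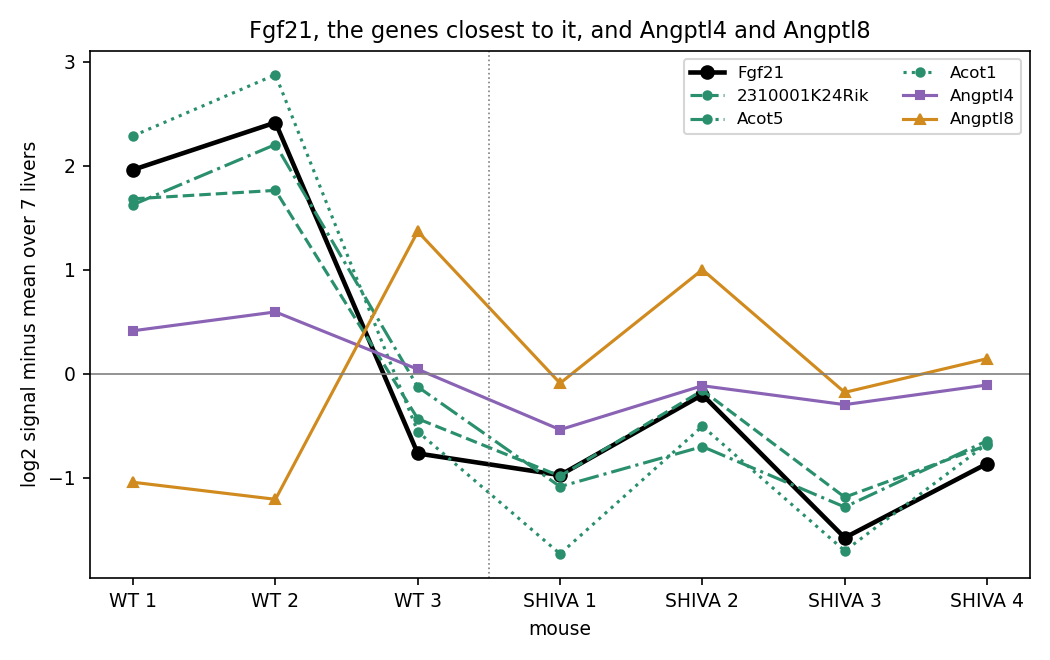
Log2 signal minus the mean over 7 livers, by mouse, for Fgf21, the 3 genes closest to it, Angptl4 and Angptl8, with a dotted line between WT and SHIVA. WT 3 sits apart from WT 1 and WT 2 in Fgf21 (4.57 against 7.30 and 7.75) and in the opposite direction in Angptl8 (13.24 against 10.83 and 10.67).

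In the activin pair the ligand measured lower and the binding protein higher. The Inhbe probe (mm9, chr10:126786719-126786778, minus strand) read 10.83, 11.42 and 10.36 in WT. The SHIVA livers read 9.36, 9.81, 9.60 and 8.24. All WT values were above all SHIVA values, and SHIVA 4 was the lowest. Means were 10.87 ± 0.53 (SD, n = 3) and 9.25 ± 0.70 (SD, n = 4). Inhbe was thus 3.07-fold lower in SHIVA (interval 1.65 to 5.70), with a log2 difference of -1.62 (95% interval -2.51 to -0.73, SE 0.39). Its limma adjusted p was 0.149 and its exact permutation p 0.0286. Without WT 3 the difference was -1.87 (limma adjusted p = 0.0795), and without SHIVA 4 it was -1.28.

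Fst had the lowest adjusted p of the members. Its probe (mm9, chr13:115243565-115243624, minus strand) read 6.67, 7.18 and 7.12 in WT. The SHIVA livers read 9.36, 7.99, 8.84 and 9.20. The groups did not overlap, and SHIVA 2 lay nearest to WT. Means were 6.99 ± 0.28 (SD, n = 3) and 8.85 ± 0.61 (SD, n = 4), a log2 difference of 1.85 (95% interval 1.13 to 2.58, SE 0.32). This was 3.61-fold higher in SHIVA (interval 2.18 to 5.98), a larger change than in all but 0.435% of genes. Its limma adjusted p was 0.0602. The two-sided exact permutation p was 0.0571, since 1 other split gave a difference as large in size. Without SHIVA 2 the difference was 2.14 (limma adjusted p = 0.0231), while leaving out any other mouse gave adjusted p-values from 0.0545 (WT 3) to 0.255 (WT 1).

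Genes with patterns most like Inhbe, whose SD over the livers was 1.04, were Adra1a (RMS 0.294), Tmem254a (0.374) and Tlr12 (0.392). Those most like Fst, with an SD of 1.09, were Gm379 (RMS 0.315), Pif1 (0.376) and an intergenic transcript probe (0.392). Gm379 measured 6.49 to 6.89 in WT and 7.78 to 8.64 in SHIVA livers, and Tmem254a 12.17 to 12.64 in WT and 10.69 to 11.74 in SHIVA livers. Adra1a was well above background in no SHIVA liver and the intergenic probe in no WT liver, so their lower values are bounds.

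The Angptl6 probe and the Igfbp2 probe that stood for the gene end on the stop codon of their transcripts and are shown because they place the measurement within the coding sequence. Capitals mark the stop codon.
Angptl6 probe: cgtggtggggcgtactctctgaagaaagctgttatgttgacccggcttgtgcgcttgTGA
Igfbp2 probe: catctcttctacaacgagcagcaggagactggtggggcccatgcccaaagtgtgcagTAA
Among the IGF binding proteins neither gene separated the genotypes. Igfbp1 measured 13.50, 14.28 and 13.66 in WT, and 13.67, 14.10, 13.33 and 15.32 in SHIVA livers. SHIVA 4 was far above the rest, and the other SHIVA livers overlapped with WT. The difference was 0.29 (95% interval -0.71 to 1.30, SE 0.44, limma adjusted p = 0.823), and it turned to -0.11 without SHIVA 4. Igfbp2 measured 13.99, 14.88 and 14.81 in WT, and 15.23, 14.06, 15.24 and 15.07 in SHIVA livers. SHIVA 2 was low, next to WT 1, and the other SHIVA livers were above all WT livers. The difference was 0.34 (95% interval -0.43 to 1.11, SE 0.34, limma adjusted p = 0.725). A second Igfbp2 probe, whose start lies 136 bases away, gave 0.38 (SE 0.37, limma adjusted p = 0.728), with SHIVA 2 again the lowest SHIVA liver.

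Ahsg had the smallest spread of all members. This gene, ranked 16 of 55681 probes by mean signal, measured 17.86, 17.90 and 17.88 in WT, and 17.84, 17.80, 17.80 and 17.78 in SHIVA livers. All WT values were above all SHIVA values, yet the whole range was 17.78 to 17.90. The residual SD of 0.025 compares with a median of 0.26 over all genes, and the difference was -0.07 (95% interval -0.35 to 0.21, limma adjusted p = 0.850). These values and this residual SD are those after quantile normalization, which brings the arrays to a common distribution. With each array scaled to its 75th percentile the range was wider, 17.74 to 17.97, and the groups overlapped. Fetub measured 13.92 to 14.57 in WT and 14.52 to 14.92 in SHIVA livers, a difference of 0.33 (95% interval -0.13 to 0.79, limma adjusted p = 0.529), and the groups overlapped.

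**Figure D3:**
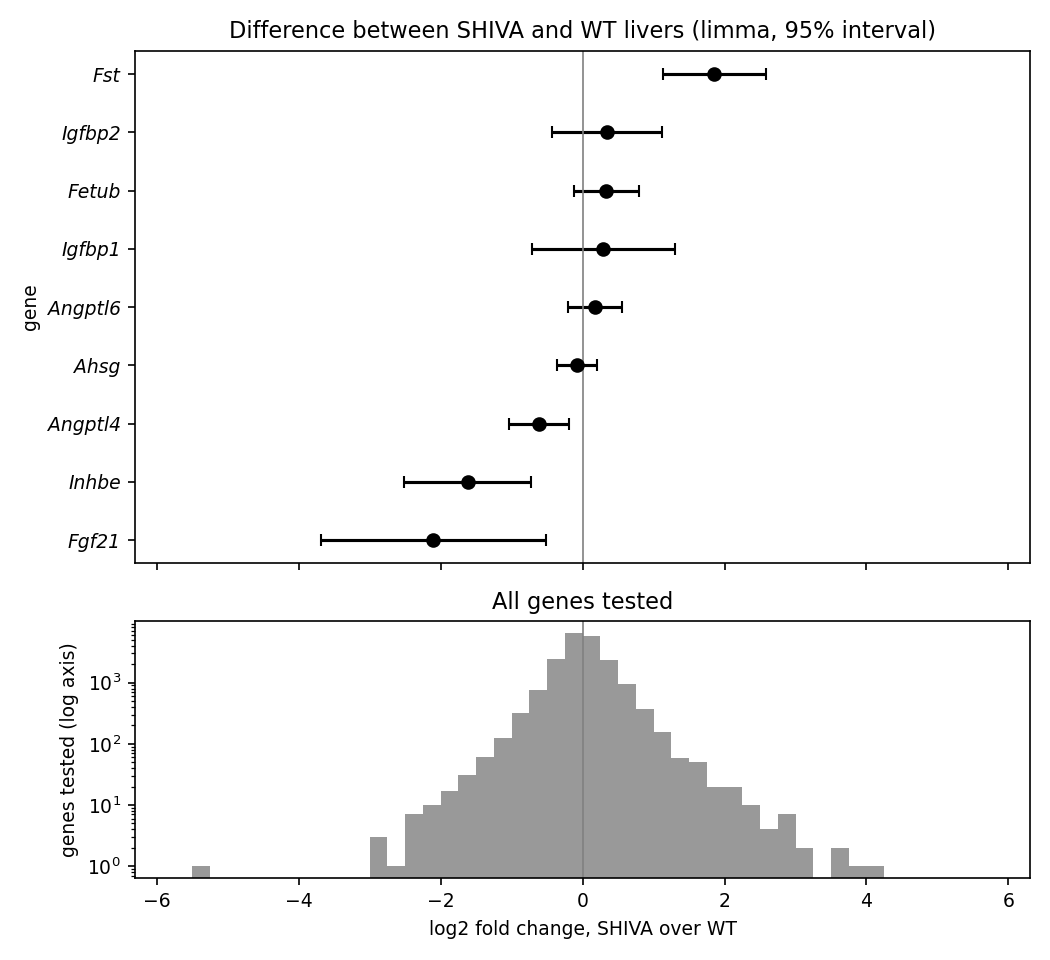
Upper panel, log2 difference between SHIVA and WT livers for each hepatokine gene with its 95% interval from limma (3 WT and 4 SHIVA mice). Lower panel, the number of genes at each difference over all 20002 genes tested, on a log axis. Fgf21 (-2.11), Inhbe (-1.62) and Fst (1.85) lie in the tails.

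The members varied among themselves in which liver led. Within WT, WT 2 was the highest for 7 of 9 genes, and the lowest was WT 1 for 6 and WT 3 for 3 (Fgf21, Angptl4 and Inhbe). Within SHIVA the highest and lowest places were spread over all 4 livers. The residual SD ran from 0.025 for Ahsg to 1.17 for Fgf21, followed by Igfbp1 with 0.72.

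**Figure D4:**
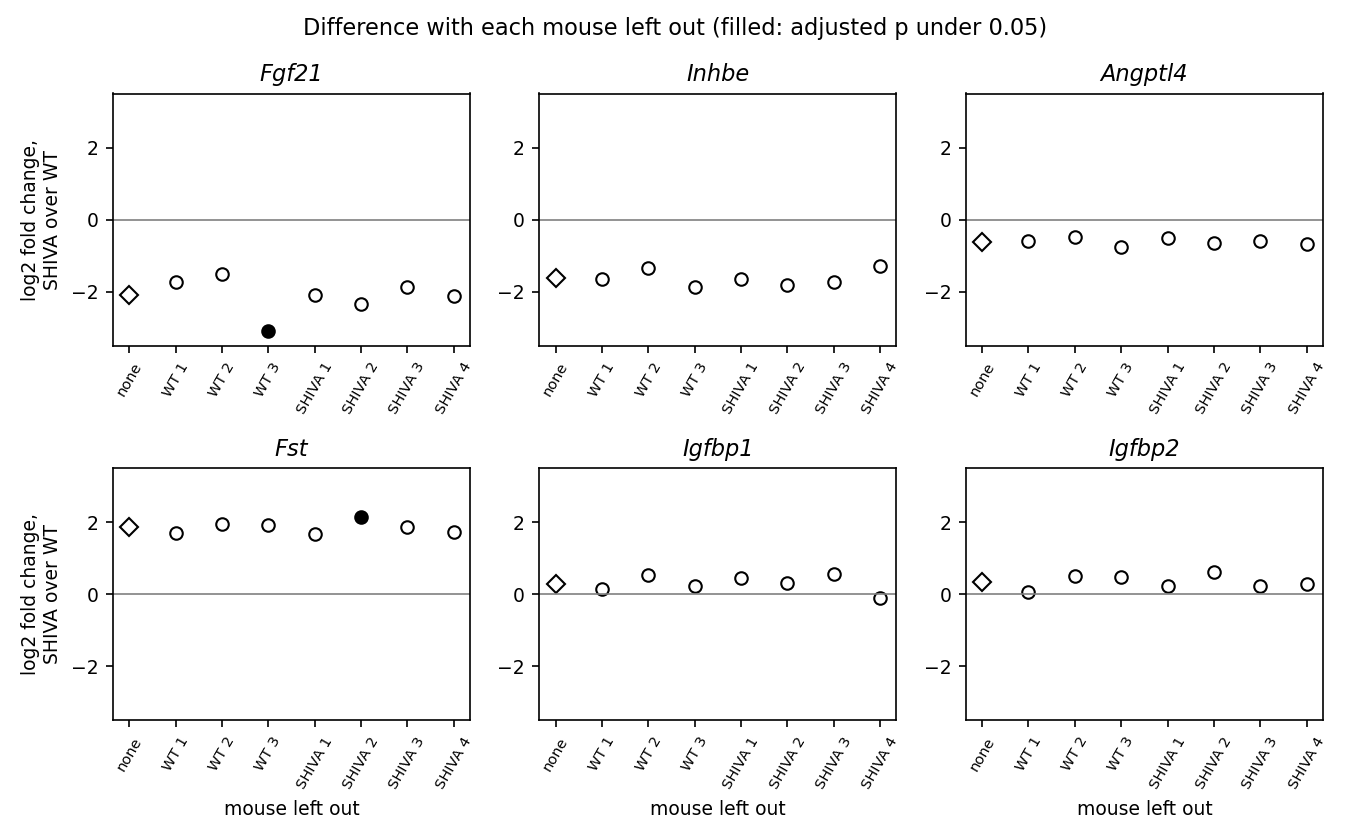
Log2 difference between SHIVA and WT livers with all mice (diamonds) and with each mouse left out in turn (circles), for 6 hepatokine genes, filled where the limma adjusted p was under 0.05. Fgf21 is filled only without WT 3 (-3.09), Fst only without SHIVA 2 (2.14), and Igfbp1 is below 0 only without SHIVA 4 (-0.11).

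Receptors, partners and targets of the members were described from 8 lists with 117 genes, of which 99 were tested and 1 was called, against 0.375% of all genes. The called gene was Lpl, lipoprotein lipase, the target of ANGPTL4. Lpl measured 7.46, 6.94 and 8.06 in WT, and 9.46, 9.95, 9.71 and 9.27 in SHIVA livers. The groups were well apart, and Lpl rose by 2.11 on the log2 scale (SE 0.28, limma adjusted p = 0.0269), 4.31-fold (interval 2.79 to 6.67). The call was lost without WT 1 (adjusted p = 0.154), WT 2 (0.110), SHIVA 1 (0.0829), SHIVA 2 (0.0545) or SHIVA 3 (0.0846), while the difference stayed between 1.83 and 2.40. The summed Kupffer cell markers followed the order of Lpl in WT, at 14.3, 13.8 and 14.9 in WT 1, 2 and 3. In SHIVA livers they were 15.0, 15.5, 14.6 and 14.3, highest in SHIVA 2 and lowest in SHIVA 4, as Lpl was. SHIVA 1 and SHIVA 3 stood in the opposite order to Lpl. Across genotypes, the sum in WT 3 was above those in SHIVA 3 and SHIVA 4, whereas its Lpl was below every SHIVA liver. The part of Kupffer cells in the Lpl difference was not tested. Of the 11 tested genes in the ANGPTL and lipase list, 6 were higher and 5 lower, with a median of 0.11.

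For FGF21, 7 of 10 listed receptors and partners were tested and 0 were called (4 higher, 3 lower, median 0.15). The largest differences were Fgf1 (-0.82, limma adjusted p = 0.250), itself a growth factor, and Fgf23 (-0.77, adjusted p = 0.145), a phosphate-regulating hormone. Of the IGF list 10 of 15 were tested and 0 called (7 higher, 3 lower, median 0.25). Igfbp3, the main IGF carrier in blood, was at 5.89 to 6.25 in WT and 6.67 to 7.06 in SHIVA livers, a difference of 0.86 (limma adjusted p = 0.0830). Igf1r, the IGF1 receptor, was well above background in 0 of 3 WT and 4 of 4 SHIVA livers. By the means it was at least 1.55-fold higher in SHIVA. The measured values overlapped, with 3.34 to 4.18 in WT and 3.95 to 5.37 in SHIVA livers. The 95% interval of the measured fold was 0.90 to 2.74 (limma adjusted p = 0.480). Of the activin and follistatin list 14 of 17 were tested and 0 called (9 higher, 5 lower, median 0.33). Fstl3, a follistatin relative, differed by -0.82 (limma adjusted p = 0.544), and Inhbb, the activin B subunit, by 0.75 (adjusted p = 0.526).

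In the list of fetuin relatives and targets 13 of 15 were tested and 0 called, with 10 higher, 3 lower and a median of 0.45. The list is wider than its name, since it also holds Ambp and the inter-alpha-trypsin inhibitor genes Itih1, Itih2, Itih3 and Itih4. Mgp, an inhibitor of calcification, differed by 0.76 (limma adjusted p = 0.133), and Itih3, an inter-alpha-trypsin inhibitor chain, by 0.75 (adjusted p = 0.216). Among other hormones of the liver 17 of 18 were tested and 0 called (6 higher, 11 lower, median -0.12). Tsku, encoding tsukushi, was at 6.23 to 6.88 in WT and 5.33 to 5.82 in SHIVA livers, a difference of -1.07 (limma adjusted p = 0.0801), or -1.28 without WT 3 (adjusted p = 0.0226). Fgl1, hepassocin, differed by 0.98 (adjusted p = 0.363).

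Of the regulators of the fasting response 18 of 20 were tested and 0 called (7 higher, 11 lower, median -0.10). Esrrg, a nuclear receptor, measured 4.72, 4.75 and 4.97 in WT and 1.92 to 3.33 in SHIVA livers, but was well above background in none of the 4 SHIVA livers. By the means it was at least 2.85-fold lower there (limma adjusted p = 0.0593), the bound being set by the dimmest probe well above background on each array. Esrrg and Igf1r passed the filter through 1 genotype only, the only 2 of the 99 genes to do so. Ppara, the gene for PPARα, measured 12.19 to 12.61 in WT and 11.64 to 11.78 in SHIVA livers, a difference of -0.67 (adjusted p = 0.132). All 12 fasting-response enzymes were tested and 0 were called, with 4 higher, 8 lower and a median of -0.55 against -0.01 over all genes. At an unadjusted p under 0.05, 7 of the 12 were lower and 0 higher, against 6.09% and 7.24% of all genes. The fetuin list was one-sided the other way, with 6 of 13 higher, among them Itih1, Itih3 and Itih4, and 0 lower. The remaining lists had 0 to 2 genes in each direction. Cyp4a14, a fatty acid hydroxylase, differed by -2.27 (limma adjusted p = 0.164), or -2.81 without WT 3 (adjusted p = 0.0528), and Vnn1, a pantetheinase, by -1.54 (adjusted p = 0.132).

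**Figure D5:**
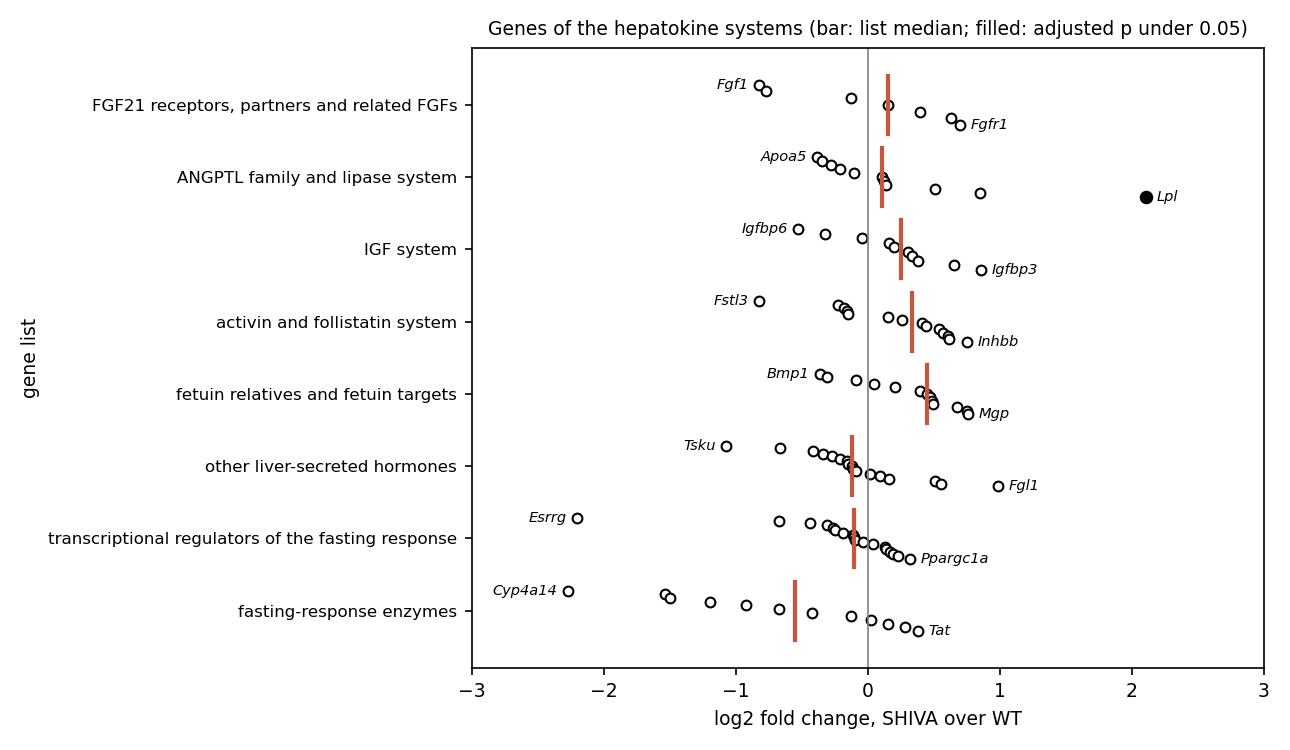
Log2 difference between SHIVA and WT livers for each tested gene of the 8 lists, with the list median as a bar, the lowest and highest gene of each list named, and filled points for a limma adjusted p under 0.05. Lpl is the 1 filled point, at 2.11, and the enzymes have the lowest median, -0.55.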

How the data were processed

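Liver RNA of 3 WT and 4 SHIVA mice was hybridised to single-colour Agilent arrays, 1 per mouse. The intensities deposited by the authors are processed signals from Feature Extraction 10.5.1.1 (per the submitters' processing notes), detrended, without local background subtraction and not normalized between arrays. The authors also deposited a table of log2 values, described in the study's methods as quantile normalized, which was used as an alternative. Neither kind of file holds a comparison by the authors.

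Control spots (3671 of 62976) and flagged spots (120 to 163 per array) were left out, and 0 spots were saturated. Processed signals of the 7 arrays were brought to a common distribution (quantile normalization) and log2 transformed. Symbols were updated through RefSeq accessions (GRCm38.p6, 26413 probes matched), and the others kept the array's name. Positions of probes are those of mm9. Each gene was represented by its brightest probe on average, and tested if 3 or more arrays had that probe well above background (20002 genes), with lmFit and eBayes of limma 3.58.1 in R 4.3.3 and Benjamini-Hochberg adjustment over all of them. The procedure was tested on simulated data. The arrays had 44.5% to 48.7% of their probes well above background, and the number of arrays limits the precision. Groups follow the labels, and p-values set a difference against the spread between these mice. In limma that spread is moderated by the spread of all genes tested.

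The members and gene lists were chosen with earlier results of these data known. Named are all members, Sox17, and from each list the genes called or, with none, the 2 with the largest difference, plus the 3 genes nearest to each of the 3 most variable members. Angptl8, and list genes called only with a mouse left out, were named after their values were seen. Alternatives were another scaling, background correction or filter, the mean of all probes, array weights, a t-test, a replicate block and each mouse left out. A shorter form of 1 promoter motif was added after the sequences had been read. The 75 genes called were 37 higher and 38 lower.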

Additional observations from a re-analysis of the deposited data

Results flagged for a closer look

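The Igfbp2 signal of SHIVA 2 lay far from the other SHIVA livers, at 14.06 against 15.07 to 15.24 on the log2 scale. The gap to its nearest neighbour made up 0.851 of the range of the 4 livers, which Dixon's test at the 95% level treats as an outlier. The second Igfbp2 probe, on the same RNA, showed the same liver at 12.55 against 13.81 to 13.96, with a gap of 0.899 of the range. Of 11 items examined 2 were picked out, where chance gives about 0.55, and both are probes of 1 gene.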

How the results depend on the processing

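All 9 hepatokine genes except Igfbp1 kept the direction of their difference under every alternative run. Igfbp1 turned to -0.12 with array weights and to -0.11 without SHIVA 4 or with the replicate block. Fst passed the threshold with the mean spot signal (1.66, adjusted p = 0.0294), the authors' table (1.66, 0.0285), the filter on all arrays (1.85, 0.0362) and array weights (2.06, 0.0187). It did not with 75th-percentile scaling (0.0533), normexp (0.0661), the mean of all probes (0.0670), the replicate block (0.142), no filter (0.204), the t-test (0.301) or the permutation p adjusted over all genes (0.441). The cause was not tested.

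Genes called numbered 142 with the mean signal, 142 with the authors' table, 13 with no filter, 283 with array weights, 0 with the t-test (2299 at an unadjusted p under 0.05) and 32 with the replicate block, against 75. The share called higher was 49.3% of 75, but 38.0% with normexp background correction, 30.8% with no filter and 65.6% with the replicate block. Of the list genes 2 were called with the mean signal, 2 with the authors' table, 0 with no filter, 6 with weights and 0 with the t-test, against 1. Medians moved for the activin list to 0.20 (normexp), 0.15 (no filter) and 0.13 (weights), for the FGF21 receptors to 0.27 and the ANGPTL list to -0.11 (no filter), and for the IGF list to 0.11 and the regulators to -0.037 (weights).

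When single mice were left out, the differences ran from -3.09 to -1.50 for Fgf21, -0.77 to -0.49 for Angptl4, 0.08 to 0.30 for Angptl6, -0.11 to 0.55 for Igfbp1, 0.06 to 0.62 for Igfbp2, -1.87 to -1.28 for Inhbe, 1.68 to 2.14 for Fst, -0.09 to -0.06 for Ahsg and 0.12 to 0.45 for Fetub. Genes called ran from 4 (without WT 1) to 397 (without WT 3), with 10 without WT 2, 7 without SHIVA 1, 43 without SHIVA 2, 13 without SHIVA 3 and 50 without SHIVA 4, and list genes called from 0 to 6. The 6 called without WT 3 were Lpl, Acvr2b, Cyp4a10, Pdk4, Plin2 and Tsku. List medians ran from -0.017 to 0.24 (FGF21 receptors), -0.10 to 0.13 (ANGPTL), 0.13 to 0.36 (IGF), 0.10 to 0.44 (activin), 0.24 to 0.62 (fetuin), -0.16 to -0.07 (other hormones), -0.14 to -0.031 (regulators) and -0.62 to -0.39 (enzymes).

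By the labels, same-numbered mice shared only a number. The correlations of their deviations were -0.05, 0.01 and 0.24, with no reference value, so they cannot exclude a pairing. With the replicate block Lpl had an adjusted p of 0.0627, and SHIVA 4 adds no information to that fit. Lpl was also not called with no filter (0.118) or by the t-test (0.199). The Fgf21 difference was -1.15 with normexp, -1.46 with the mean signal and -2.65 with array weights.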
